A study of Mus musculus with 9 samples.

Results

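Annexins are a family of proteins that bind membrane phospholipids when calcium rises. The 9 annexin genes described here are Anxa1, Anxa2, Anxa3, Anxa4, Anxa5, Anxa6, Anxa7, Anxa11 and Anxa13, taken by symbol from a table of read counts on 24008 genes in mouse liver. The table holds 3 further annexins (Anxa8, Anxa9 and Anxa10), which are given for comparison. The libraries came from whole liver pieces of mice with non-alcoholic steatohepatitis (NASH), in which fat, inflammation and fibrosis build up in the liver, with 3 liver samples per group and 1 library per sample. All mice were on a high fat and high carbohydrate diet. Flox livers are labelled wild type and served as controls, F4MKO livers came from mice that lack Irf4 in skeletal muscle, and F4MKO+FSTL1 livers came from such knockouts in which the secreted protein FSTL1 was also overexpressed. Per the study's methods, a Myl-Cre drove the muscle deletion of floxed Irf4 in mice of C57BL/6J background, and FSTL1, tagged with Flag, came from an AAV8 with the muscle creatine kinase promoter that was injected into the gastrocnemius. The methods give 24 weeks of NASH diet, another passage on the virus gives 12 weeks, and livers were taken 4 weeks after the injection. Per the paper, Flox and F4MKO mice received an AAV with GFP, whereas their labels name no vector and give neither age nor sex. Irf4 was deleted in muscle, so liver RNA does not check the genotype. The sources used here do not say that the 3 samples of a group came from different mice, and p-values measure only the spread between these samples.

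All annexins share a core of repeated domains that carries the calcium sites, in front of which lies a tail that differs between members and binds other proteins, among them small S100 proteins. Through these contacts annexins help to seal damaged membranes, organize vesicle traffic, bind phosphatidylserine on the surface of dying cells and hold the plasminogen system at the cell surface. In liver, several of them are known from bile duct cells, macrophages and stellate cells as well as from hepatocytes, and annexin A1 is known for ending inflammation.

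Each library had 20656976 to 24322984 reads assigned to genes, and 14379 genes had enough counts to be tested. The hepatocyte markers had 88717 to 109432 CPM in sum in 8 libraries and 77684 CPM in F4MKO replicate 1, which also had the largest normalization factor (1.17) and the most RNA of bile duct markers. CPM are read counts scaled to a common library size, here with TMM factors from edgeR. A gene is called differentially expressed, higher or lower, at an adjusted p under 0.05 (quasi-likelihood test of edgeR, Benjamini-Hochberg correction over all tested genes) and a fold change above 1.5. Of the 9 members, 8 had enough counts. Anxa13, which is known mainly from intestine and kidney epithelium, was too low to test, with 1, 5 and 0 reads in the Flox, 15, 0 and 4 in the F4MKO and 5, 1 and 1 in the F4MKO+FSTL1 libraries. A count of 0 allows up to 3 reads per library, so expression below that was not detectable at this depth.

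To show promoters of members that moved and of members that did not, the 120 bases before the first annotated exon are printed for Anxa2, Anxa4, Anxa7 and Anxa11. Anxa2 was called lower in F4MKO+FSTL1 than in F4MKO livers. Anxa4 was lower in all F4MKO+FSTL1 than in all F4MKO libraries but missed the fold threshold, and Anxa7 and Anxa11 were flat. The sequences are from RefSeq, build GRCm38.p6, written 5′ to 3′ on the gene's strand, from chr9:69453500-69453619 (plus strand) for Anxa2, chr6:86793585-86793704 (minus) for Anxa4, chr14:20480134-20480253 (minus) for Anxa7 and chr14:25842035-25842154 (plus) for Anxa11. Capitals mark the AP-1 motif (TGANTCA) and the GC box (GGGCGG, or CCGCCC when read on the other strand).
Anxa2: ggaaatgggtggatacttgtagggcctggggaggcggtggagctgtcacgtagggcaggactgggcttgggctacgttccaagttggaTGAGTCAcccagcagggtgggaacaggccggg
Anxa4: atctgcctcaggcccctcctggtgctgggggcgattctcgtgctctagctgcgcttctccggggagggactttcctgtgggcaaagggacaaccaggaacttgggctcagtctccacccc
Anxa7: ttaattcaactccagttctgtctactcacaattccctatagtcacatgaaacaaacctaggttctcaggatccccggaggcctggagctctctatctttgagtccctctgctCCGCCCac
Anxa11: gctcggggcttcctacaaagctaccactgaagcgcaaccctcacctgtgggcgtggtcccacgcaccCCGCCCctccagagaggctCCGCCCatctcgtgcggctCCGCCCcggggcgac
The search ran on both strands of the windows from 250 bases before to 50 after each RefSeq start, which matched 6 of the 9 members (Anxa1, Anxa2, Anxa4, Anxa5, Anxa7 and Anxa11). Among these, the AP-1 motif was found in the Anxa2 window alone, 95 bases before the start, and 7.81% of all 32851 windows hold it. GC boxes were found for Anxa11 (3), Anxa2 (3, outside the printed stretch), Anxa4 (1, outside the printed stretch) and Anxa7 in both of its windows, and 35.7% of all windows hold one, so this motif is shared by members that moved and members that were flat. TATAAA (13.6% of windows) was found for Anxa1 and Anxa2. TEAD's GGAATG (14.7% of windows) was found in the Anxa1 window, and CCAAT (37.4%) in none of the 6 members. These are matches of letters and say nothing of binding.

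On a scale per length, the annexins of Flox livers spanned more than an order of magnitude. CPM per kilobase of the longest annotated transcript (GENCODE vM21) were highest for Anxa5, which covers exposed phosphatidylserine, at 157 ± 18.9 (SD, n = 3). Anxa6, a member with a longer core that links membranes to the actin skeleton, had 56.8 ± 5.37, and Anxa7, a member tied to membrane fusion, 49.9 ± 0.406, and the libraries of the 2 did not overlap. Anxa4, known from bile duct and other epithelia, followed at 20.1 ± 0.856 and Anxa2, the partner of S100a10, at 14.1 ± 2.81, again without overlap. Anxa1 (4.68 ± 0.520), Anxa11 (4.24 ± 0.847) and Anxa3 (4.07 ± 0.596) came last, and their libraries overlapped, so these 3 cannot be ordered. In F4MKO livers Anxa2 had 32.9 ± 6.21 CPM per kilobase and stood before Anxa4 at 26.0 ± 3.32, though their libraries overlapped. In F4MKO+FSTL1 livers Anxa4 (18.2 ± 1.78) again stood before Anxa2 (9.94 ± 5.08), and Anxa11 (4.50 ± 0.429) lay above Anxa1 (3.36 ± 0.165) without overlap. The longest Anxa2, Anxa4 and Anxa11 transcripts are not protein coding. With the longest coding transcript in their place, a length chosen after the data were seen, 6 of 8 members kept their rank in Flox livers. At this length the Flox libraries of Anxa4 (mean 26.0) and Anxa2 (mean 22.2) overlapped, so their order there depends on the length used. In F4MKO livers Anxa2 (51.8) ranked above Anxa7 (51.0) at the coding length.

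**Figure D1:**
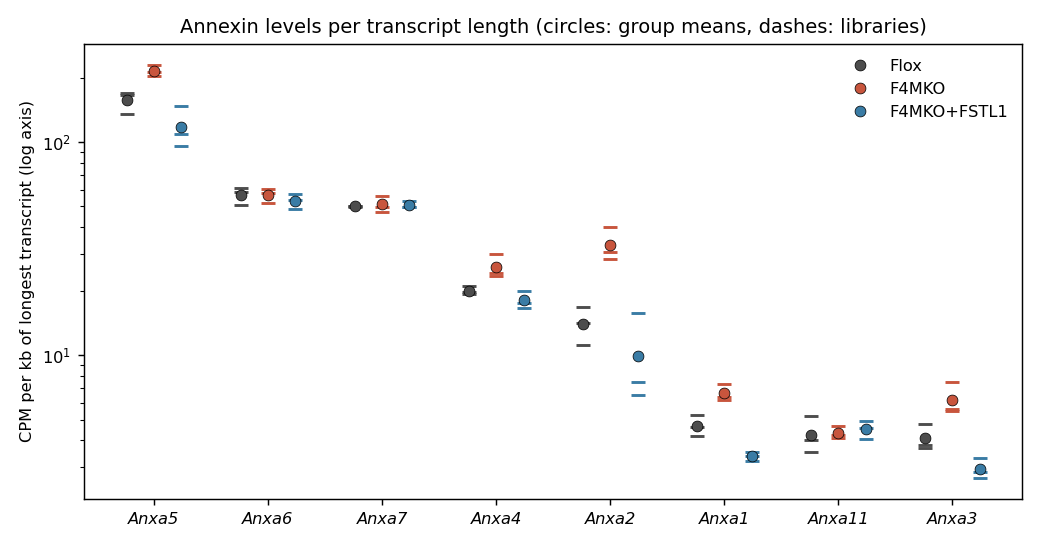
CPM per kilobase of the longest transcript (log axis) for the 8 tested annexins, ordered by the Flox mean. Circles are group means and dashes single libraries of Flox, F4MKO and F4MKO+FSTL1 livers. Anxa5 leads in all 3 groups, and Anxa2 spans from 9.94 in F4MKO+FSTL1 to 32.9 in F4MKO livers.

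Together the 9 members held 669 ± 31.0 CPM in Flox, 841 ± 35.2 CPM in F4MKO and 576 ± 62.2 CPM in F4MKO+FSTL1 livers (mean ± SD, n = 3). The F4MKO libraries lay above all others, between 806 and 876 CPM. The Flox and F4MKO+FSTL1 groups nearly touched but did not overlap, with 637.46 CPM in Flox replicate 3 and 637.29 CPM in F4MKO+FSTL1 replicate 1. Anxa5 provided 40.6% of the family's reads in Flox, 44.6% in F4MKO and 35.1% in F4MKO+FSTL1 livers, and Anxa2 provided 4.78%, 8.89% and 3.84%.

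F4MKO livers were compared with Flox livers to ask how the loss of Irf4 in muscle relates to liver transcripts. Of the 8 tested members, 0 were called by edgeR's quasi-likelihood test, where 0.271% of all tested genes were called. Higher values in all F4MKO than in all Flox libraries were found for 5 annexins (Anxa1, Anxa2, Anxa3, Anxa4 and Anxa5), while Anxa6, Anxa7 and Anxa11 overlapped. Such values were found for 11.7% of all genes. The same 5 had an unadjusted p under 0.05, against 16.9% of all genes. DESeq2 called 1 member, Anxa2, and 338 of the 15162 genes to which it gave an adjusted p. The members' median log2 fold change was 0.42, beside -0.00 over all genes.

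Anxa2, which forms a complex with S100a10 that holds plasminogen and its activators at the cell surface, lies at chr9:69453620-69491795 on the plus strand. It had 38.4, 32.4 and 25.6 CPM in the Flox libraries, 91.1, 69.4 and 64.4 CPM in the F4MKO libraries and 36.0, 14.9 and 17.2 CPM in the F4MKO+FSTL1 libraries. Every F4MKO library was above every other library, and F4MKO+FSTL1 replicate 1 lay inside the Flox range while the other two were below it. In F4MKO relative to Flox livers its log2 fold change was 1.22 (standard error 0.28, 2.34-fold, edgeR adjusted p = 0.0776), with a 95% interval from 1.52-fold to 3.59-fold. In F4MKO+FSTL1 relative to F4MKO livers Anxa2 fell 3.30-fold, the most of all members (log2 fold change -1.72, standard error 0.29, edgeR adjusted p = 0.00302). Compared with Flox livers, the F4MKO+FSTL1 group had a log2 fold change of -0.50 (edgeR, adjusted p = 0.504), which became -1.003 without F4MKO+FSTL1 replicate 1 (edgeR, adjusted p = 0.187).

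Anxa5, whose protein binds phosphatidylserine and is used to stain dying cells, lies at chr3:36448923-36475894 on the minus strand. Its levels were 293, 289 and 234 CPM in Flox, 400.1, 355 and 370.4 CPM in F4MKO and 255, 166 and 189.8 CPM in F4MKO+FSTL1 libraries. As with Anxa2, replicate 3 was the lowest Flox library and replicate 1 the highest F4MKO+FSTL1 library. The log2 fold change between F4MKO and Flox livers was 0.46 (standard error 0.16, edgeR adjusted p = 0.175). In F4MKO+FSTL1 relative to F4MKO livers Anxa5 fell 1.84-fold (log2 fold change -0.88, standard error 0.16, edgeR adjusted p = 0.00370). When the test asked for more than a 1.5-fold change instead of for any change, the adjusted p of Anxa5 was 0.149 (edgeR), and this call was lost.

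Anxa1, a glucocorticoid-induced protein that signals through formyl peptide receptors to limit neutrophil entry, lies at chr19:20373428-20390944 on the minus strand. Its levels were 7.76, 7.01 and 8.74 CPM in Flox, 10.3, 10.7 and 12.3 CPM in F4MKO and 5.89, 5.33 and 5.64 CPM in F4MKO+FSTL1 libraries. The groups did not overlap with each other. The log2 fold change was 0.50 for F4MKO relative to Flox livers (standard error 0.13, edgeR adjusted p = 0.101) and -0.98 for F4MKO+FSTL1 relative to F4MKO livers (standard error 0.13, 1.98-fold lower, edgeR adjusted p = 0.00144). A gene on the opposite strand, 1500015L24Rik, overlaps Anxa1 and had 0 to 4 reads per library.

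Anxa3, a member described in neutrophils and in liver progenitor and tumour cells, lies at chr5:96793339-96845966 on the plus strand. It had 5.84, 6.06 and 7.59 CPM in Flox, 11.96, 8.92 and 8.74 CPM in F4MKO and 4.53, 4.23 and 5.28 CPM in F4MKO+FSTL1 libraries, or 88 to 338 reads. The groups again did not overlap, and F4MKO replicate 1 stood above the other F4MKO libraries. Its log2 fold change was 0.61 between F4MKO and Flox livers (standard error 0.17, edgeR adjusted p = 0.117) and -1.08 between F4MKO+FSTL1 and F4MKO livers (standard error 0.17, 2.11-fold lower, edgeR adjusted p = 0.00232).

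Anxa4 lies at chr6:86736840-86793584 on the minus strand and had 52.0, 51.0 and 55.3 CPM in Flox, 78.1, 62.0 and 64.2 CPM in F4MKO and 46.4, 43.7 and 52.8 CPM in F4MKO+FSTL1 libraries. F4MKO libraries were above all others, and the remaining groups overlapped. Like Anxa3, Anxa4 was highest in replicate 3 of the Flox and F4MKO+FSTL1 groups and in replicate 1 of the F4MKO group. In F4MKO+FSTL1 relative to F4MKO livers the fold change was 1.43 lower (log2 fold change -0.52, standard error 0.11, edgeR adjusted p = 0.00810), so Anxa4 passed the p but not the fold threshold. Without F4MKO+FSTL1 replicate 3 it passed both, with a log2 fold change of -0.59 (edgeR, adjusted p = 0.00807).

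**Figure D2:**
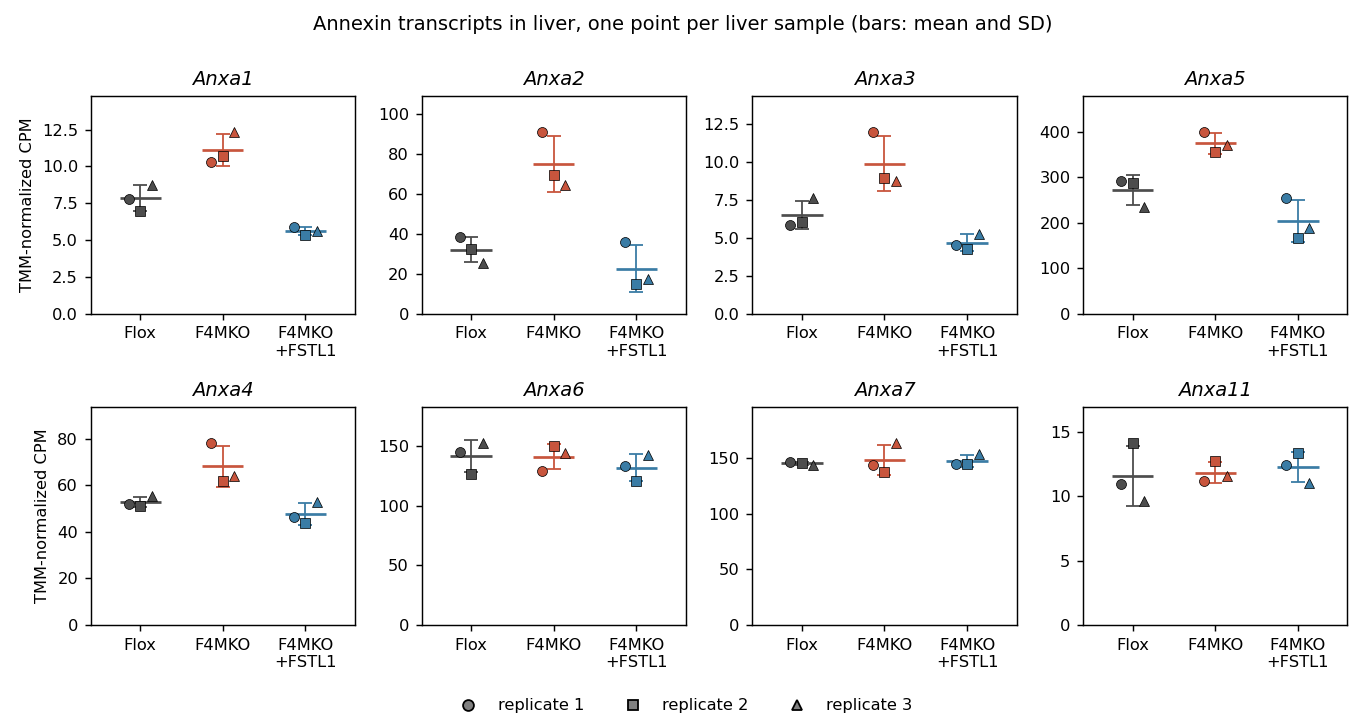
TMM-normalized CPM of the 8 tested annexins in every library of Flox, F4MKO and F4MKO+FSTL1 livers, each panel from 0. Points are libraries (shape gives the replicate number), and bars give mean and SD. In Anxa1 to Anxa5 every F4MKO point lies above all points of the other groups, while in Anxa6, Anxa7 and Anxa11 the groups overlap.

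F4MKO+FSTL1 livers were compared with F4MKO livers to ask how muscle FSTL1 relates to liver transcripts in the knockouts. Both this comparison and the one above rest on the same 3 F4MKO libraries, so a high value there enters both. Of the 8 members, 4 were called and all were lower (Anxa1, Anxa2, Anxa3 and Anxa5). Of all tested genes 14.4% were called, and 11.2% were called lower. Anxa1 to Anxa5 (5 members) were lower in all F4MKO+FSTL1 than in all F4MKO libraries, against 21.1% of all genes. The median log2 fold change over all 8 tested members was -0.70, beside 0.01 over all genes. DESeq2 called the same 4 members, beside 2127 of 16092 genes. Without F4MKO replicate 1, the 4 members were still called, with log2 fold changes of -1.04 for Anxa1, -1.56 for Anxa2, -0.92 for Anxa3 and -0.83 for Anxa5 (adjusted p from 0.00424 to 0.0160, edgeR).

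Anxa6, Anxa7 and Anxa11 gave no call in any comparison. Anxa6, which also controls cholesterol traffic between membranes, had 145, 126 and 152 CPM in Flox, 129, 149.97 and 144 CPM in F4MKO and 133, 120.4 and 142 CPM in F4MKO+FSTL1 libraries. Its log2 fold change between F4MKO+FSTL1 and F4MKO livers was -0.10 (edgeR, adjusted p = 0.563), with a 95% interval from 0.791-fold to 1.10-fold. Anxa7 lay between 137 and 163 CPM in all 9 libraries, with a log2 fold change of -0.01 and an interval from 0.862-fold to 1.15-fold. Anxa11, a member that tethers RNA granules to lysosomes, had 9.63 to 14.1 CPM, with a log2 fold change of 0.06 and an interval from 0.832-fold to 1.30-fold. These intervals leave room for small changes, and none reaches a 1.5-fold change in either direction. Since Anxa2 moved and Anxa6 did not, the ratio of their CPM was 0.168 to 0.265 in Flox, 0.446 to 0.705 in F4MKO and 0.121 to 0.271 in F4MKO+FSTL1 libraries.

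The comparison of F4MKO+FSTL1 with Flox livers asks how far the knockouts with FSTL1 stood from controls. Of the 8 members, 0 were called by edgeR's quasi-likelihood test, where 0.00695% of all genes (1 gene) were called. DESeq2 called 0 members as well, beside 284 of 14231 genes. An unadjusted p under 0.05 was found for 3 members (Anxa1, Anxa3 and Anxa5) and for 13.4% of all genes. Anxa1 and Anxa3 were lower in all F4MKO+FSTL1 than in all Flox libraries, as were 10.7% of all genes. Their log2 fold changes were -0.48 and -0.47 (edgeR, adjusted p = 0.163 and 0.268), and that of Anxa5 was -0.42 (edgeR, adjusted p = 0.271).

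**Figure D3:**
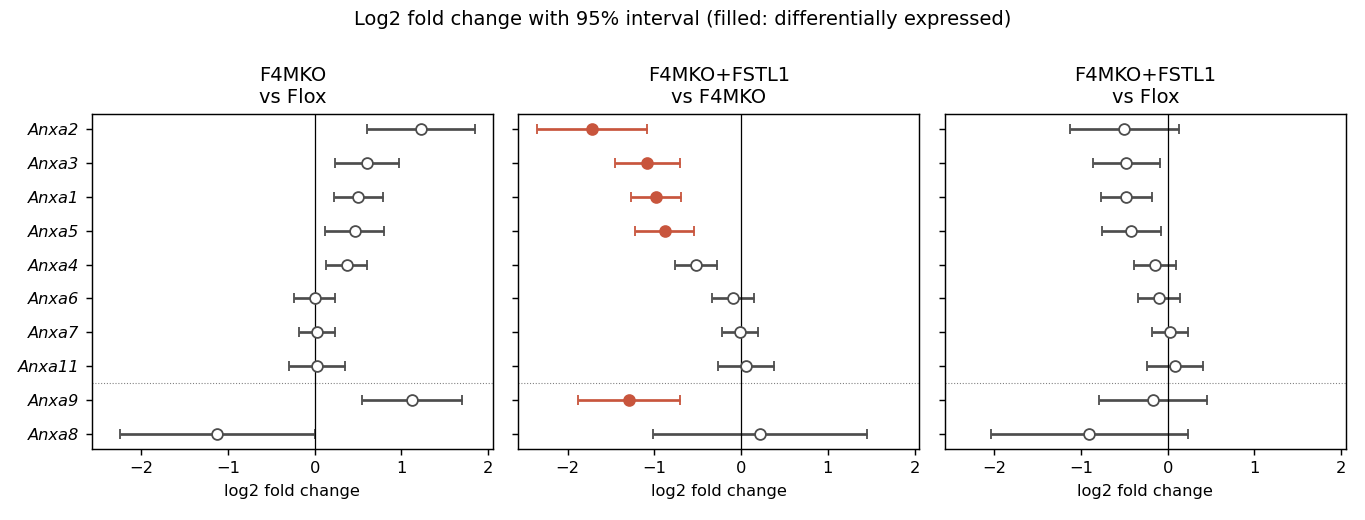
Log2 fold changes with 95% intervals in the 3 comparisons, for the 8 tested members (above the dotted line) and for Anxa9 and Anxa8. Filled points are differentially expressed. In F4MKO+FSTL1 relative to F4MKO livers, Anxa2, Anxa3, Anxa1, Anxa5 and Anxa9 are filled and all lie left of 0, and no point is filled in the other panels.

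Among the annexins outside the 9, Anxa9, an epithelial annexin, had 41, 42 and 58 reads in Flox, 176, 82 and 90 reads in F4MKO and 38, 36 and 37 reads in F4MKO+FSTL1 libraries. It was called lower in F4MKO+FSTL1 than in F4MKO livers (log2 fold change -1.29, standard error 0.27, edgeR adjusted p = 0.00740), and its log2 fold change was 1.12 in F4MKO relative to Flox livers (edgeR, adjusted p = 0.0797). Anxa8 had 7 to 33 reads per library and was not called in any comparison. Anxa10 had 1 read in F4MKO+FSTL1 replicate 1 and none elsewhere.

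The proteins that annexins work with were described by lists. S100 proteins bind the annexin tails, and 4 of 5 listed genes were tested. S100a11, the partner of annexin A1, had 38.2, 40.8 and 26.8 CPM in Flox, 81.9, 59.6 and 70.7 CPM in F4MKO and 20.1, 15.9 and 21.3 CPM in F4MKO+FSTL1 libraries, with no overlap between groups. It was the one listed partner called higher in F4MKO than in Flox livers, as 0.202% of all genes were (log2 fold change 1.003, standard error 0.17, edgeR adjusted p = 0.0404), a call that held in 1 of 9 fits that left out a library, the one without F4MKO replicate 2. In F4MKO+FSTL1 relative to F4MKO livers S100a11 fell 3.71-fold (edgeR, adjusted p = 0.000356) and S100a6, the calcyclin that binds annexin A2 and A11, fell 2.37-fold (edgeR, adjusted p = 0.0321). S100a10, the subunit of the Anxa2 complex, was chosen for mention after its values were seen, with a log2 fold change of -0.41 (edgeR, adjusted p = 0.0597). CPM of Anxa2 per CPM of S100a10 were 0.159 to 0.187 in Flox, 0.303 to 0.414 in F4MKO and 0.0998 to 0.212 in F4MKO+FSTL1 libraries.

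In the cell-surface plasminogen system, 4 of 7 tested genes were called lower in F4MKO+FSTL1 than in F4MKO livers, beside 11.2% of all genes, with a median log2 fold change of -0.90 over the list. Plat, the tissue plasminogen activator, had 1.61, 2.38 and 1.82 CPM in Flox, 6.65, 2.89 and 3.95 CPM in F4MKO and 1.03, 0.817 and 1.10 CPM in F4MKO+FSTL1 libraries, and fell 4.59-fold (edgeR, adjusted p = 0.00184). Plau, which encodes urokinase, fell 2.11-fold (adjusted p = 0.00745) and its receptor Plaur 1.87-fold (adjusted p = 0.0242, both from edgeR). The 2 listed genes with a log2 fold change above 0 are named after their values were seen. Plg, plasminogen itself, had 1430 to 1712 CPM in F4MKO and 2055 to 2262 CPM in F4MKO+FSTL1 libraries (log2 fold change 0.44, edgeR adjusted p = 0.0241, under the 1.5-fold threshold), and Serpinf2, an inhibitor of plasmin, had 438 to 556 and 564 to 707 CPM (0.34, adjusted p = 0.0838). In F4MKO relative to Flox livers edgeR called 0 of these 7 genes (5 had an unadjusted p under 0.05). DESeq2 called 1 there, beside 338 of 15162 genes. Plat had the lowest p (log2 fold change 1.22, edgeR adjusted p = 0.0890).

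The receptors and lipid enzymes tied to annexin A1 gave 1 call of 5 tested genes, where 11.2% of all genes were called lower. This was Fpr2, the formyl peptide receptor for annexin A1, with 0.721 to 1.17 CPM in F4MKO+FSTL1 and 1.70 to 2.75 CPM in F4MKO libraries (2.02-fold lower, edgeR adjusted p = 0.0312). The list's median log2 fold change was -0.63. Among genes of membrane repair and calcium-dependent partners, 3 of 15 were called lower, beside 11.2% of all genes, with a median of -0.21. Myof, a ferlin of membrane fusion, had 4.90, 6.35 and 5.06 CPM in Flox, 16.6, 9.46 and 9.22 CPM in F4MKO and 3.04, 2.88 and 3.08 CPM in F4MKO+FSTL1 libraries, and fell 3.92-fold (edgeR, adjusted p = 0.00107). Ahnak, a scaffold that binds annexin A2 with S100a10, fell 1.63-fold (edgeR, adjusted p = 0.00884), and Syt7, a calcium sensor of lysosome exocytosis, fell 2.14-fold (edgeR, adjusted p = 0.0283).

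Of 15 genes of phosphatidylserine exposure and engulfment, 5 were called lower in F4MKO+FSTL1 than in F4MKO livers, beside 11.2% of all genes, with a median log2 fold change of -0.35. Gas6, a bridge between phosphatidylserine and TAM receptors, had 65.8, 50.6 and 57.4 CPM in Flox, 102, 85.6 and 79.0 CPM in F4MKO and 35.7, 30.6 and 35.4 CPM in F4MKO+FSTL1 libraries. It fell 2.63-fold (edgeR, adjusted p = 0.000356), and Axl, one of its receptors, fell 2.01-fold (edgeR, adjusted p = 0.00228). Mfge8, which bridges phosphatidylserine to integrins as annexin A5 covers it, fell 2.04-fold (edgeR, adjusted p = 0.00103), and the scramblase Ano6 fell 1.77-fold (edgeR, adjusted p = 0.00182). For F4MKO relative to Flox livers, S100a11 was the sole edgeR call among the 46 genes of all 5 lists (15 had an unadjusted p under 0.05). DESeq2 called 6 in these lists, beside 338 of 15162 genes. Mfge8 (log2 fold change 0.65, edgeR adjusted p = 0.0571) and Myof (1.11, adjusted p = 0.0610) had the lowest p of their lists. The annexin A1 list had its lowest p there in Alox5ap, which presents lipid to lipoxygenase (log2 fold change 0.31, edgeR adjusted p = 0.556). In F4MKO+FSTL1 relative to Flox livers edgeR called 0 of the 46 tested genes of the 5 lists (14 had an unadjusted p under 0.05). DESeq2 called 3 in these lists, beside 284 of 14231 genes. The lowest p belonged to Gas6 with a log2 fold change of -0.77 (edgeR, adjusted p = 0.0640). Several calls between F4MKO+FSTL1 and F4MKO livers rested on single libraries. Of the 15 partner genes called lower there, 8 were called in every fit that left out 1 library (S100a11, Plat, Plau, Myof, Gas6, Axl, Mfge8 and Ano6). Without F4MKO replicate 1 the plasminogen list had 2 calls, membrane repair 1 and S100 proteins 1. Without F4MKO+FSTL1 replicate 1 the plasminogen list also had 2 calls. S100 proteins had 1 call without F4MKO replicate 3, F4MKO+FSTL1 replicate 1 or F4MKO+FSTL1 replicate 2, and in these same fits Fpr2 was not called. Without F4MKO+FSTL1 replicate 3 the annexin A1 list had 2 calls.

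**Figure D4:**
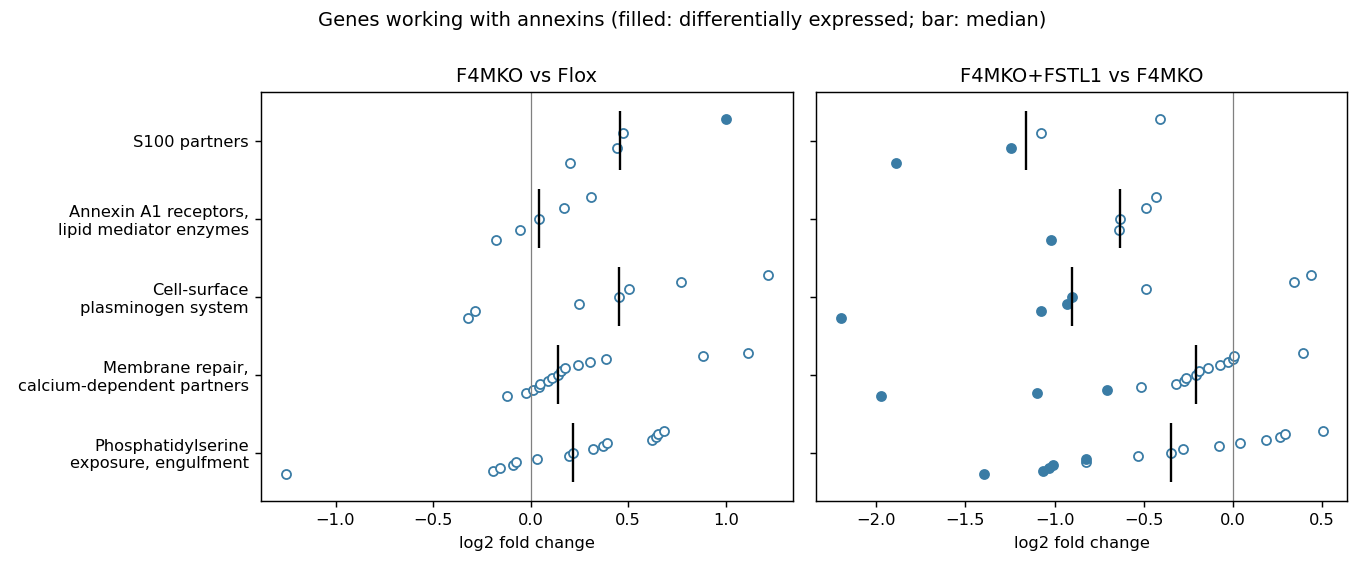
Log2 fold change of each tested gene in the 5 partner lists, for F4MKO relative to Flox livers and F4MKO+FSTL1 relative to F4MKO livers. Filled points are differentially expressed, and the black bar is the list's median. S100a11 is the one filled point on the left, and all 15 filled points on the right lie below 0.

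The tested non-member genes most like the annexins were found by the correlation of their log2 CPM with the mean z score of the 8 members over 9 libraries. That score was -0.16 to -0.07 in Flox, 0.59 to 0.95 in F4MKO and -0.98 to -0.46 in F4MKO+FSTL1 libraries. The 5 closest genes were Mfge8 (r = 0.985), Lrif1 (0.981), Pam (0.972), Cdc42 (0.971) and Ccdc122 (0.971), and with group means removed r was 0.70 to 0.93. The libraries fall into 3 groups, and the genes were picked by r over these same 9 libraries, which can also raise r within groups. Both values of r are given as measures of likeness with no test. Cdc42, a small GTPase of the actin skeleton, had 207 CPM in Flox, 239 in F4MKO and 192 in F4MKO+FSTL1 livers (means, n = 3).

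Markers of several liver cell types moved together with the annexins. In bulk RNA, fewer cells of a type and less RNA per cell cannot be told apart. Of the bile duct (cholangiocyte) markers, 6 of 7 tested were called lower in F4MKO+FSTL1 than in F4MKO livers, beside 11.2% of all genes, and their summed level was 53.9 to 94.6 CPM in Flox, 169 to 445 CPM in F4MKO and 38.7 to 57.0 CPM in F4MKO+FSTL1 libraries. Spp1, which is also on the recruited macrophage list, made up 76.6% to 89.3% of these sums, and without it they were 11.8 to 16.3, 26.2 to 47.4 and 8.84 to 13.3 CPM. Krt19, a keratin of these cells, had 2.32, 2.34 and 2.40 CPM in Flox, 6.19, 3.48 and 4.83 CPM in F4MKO and 1.17, 1.39 and 1.41 CPM in F4MKO+FSTL1 libraries. All 10 markers of recruited macrophages were called lower, with sums of 297 to 392 CPM in Flox, 566 to 931 CPM in F4MKO and 174 to 244 CPM in F4MKO+FSTL1 libraries (219 to 350, 363 to 534 and 144 to 201 CPM without Spp1). The stellate cell and fibroblast markers gave 7 of 10 calls (433 to 509, 587 to 773 and 279 to 387 CPM) and the Kupffer cell markers 6 of 10 (692 to 1089, 780 to 887 and 406 to 656 CPM). Unlike the annexins, the Kupffer cell list was not raised in F4MKO relative to Flox livers. Its median log2 fold change there was 0.07, with 6 genes above 0 and 4 below. Cycling cell markers gave 8 of 8 calls (15.7 to 27.5, 32.9 to 40.1 and 6.01 to 9.51 CPM) and neutrophil markers 2 of 6 tested (48.7 to 50.6, 82.8 to 162 and 23.8 to 56.8 CPM). Lcn2, which hepatocytes also make, was 77.4% to 89.9% of the neutrophil sums, and without it they were 8.65 to 11.5, 11.4 to 16.3 and 5.19 to 8.41 CPM, so that Flox and F4MKO libraries overlapped. Among these lists only Ngp, a neutrophil granule gene, was at 0 in a group, in F4MKO+FSTL1 livers. Hepatocyte and endothelial markers gave 0 of 10 calls each by edgeR and lymphocyte markers 0 of 6, with 1, 2 and 0 genes at an unadjusted p under 0.05 and 0 calls by DESeq2 in all 3 lists. Alb made up 57.6% to 68.9% of the hepatocyte sums. Without it these were 35618 to 37477 CPM in Flox, 28850 to 35784 CPM in F4MKO and 37105 to 39875 CPM in F4MKO+FSTL1 libraries. F4MKO and F4MKO+FSTL1 libraries then did not overlap. In the adipocyte, intestine and erythroid lists, with just 3, 2 and 6 tested genes, 0 were called lower and 1 each higher, beside 3.21% of all genes (Cfd, Fabp2 and Alas2, named after their values were seen). In F4MKO relative to Flox livers, edgeR called 2 bile duct markers (Epcam and Spp1) and 2 recruited macrophage markers (Gpnmb and Spp1) higher, beside 0.202% of all genes. DESeq2 called 5 of 7 bile duct, 6 of 10 recruited macrophage and 4 of 10 stellate markers there, beside 338 of 15162 genes. The part of these cell types in the annexin differences was not tested. For fibrosis and macrophages the paper reports the opposite direction. It describes less Sirius red staining, fewer stained macrophages and lower levels of fibrosis genes in F4MKO livers, and a return with FSTL1. Col1a1 is named after its values were seen. It had 15.7, 18.5 and 10.6 CPM in Flox and 57.7, 34.0 and 27.6 CPM in F4MKO libraries. The F4MKO+FSTL1 libraries had 11.5, 7.21 and 6.32 CPM. The reason for this difference was not tested.

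**Figure D5:**
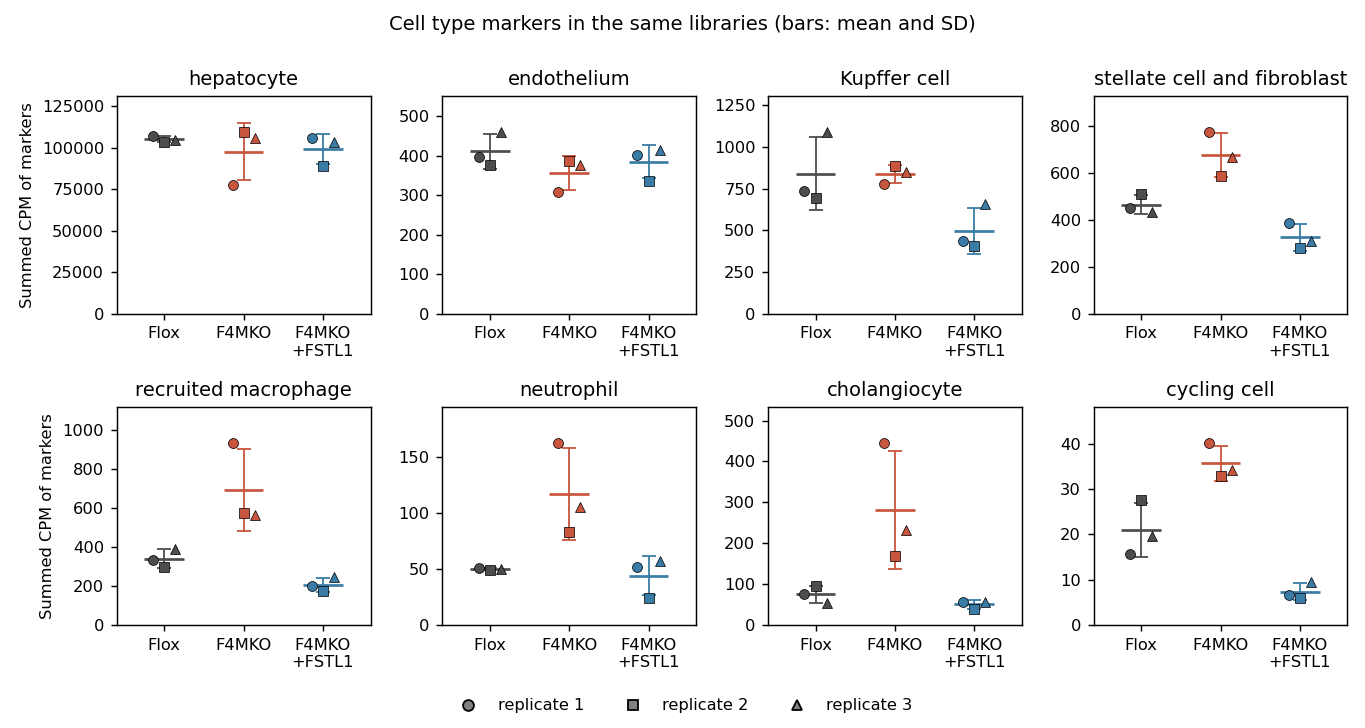
Summed CPM of the markers of 8 cell types in every library, each panel from 0, with points for libraries and bars for mean and SD. In recruited macrophage, stellate, cholangiocyte and cycling cell markers the F4MKO points lie above those of both other groups. The same holds in neutrophil markers, where Flox and F4MKO sums overlap once Lcn2 is left out. Hepatocyte and endothelial sums overlap between groups, but the F4MKO and F4MKO+FSTL1 hepatocyte sums do not once Alb is left out.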

How the data were processed

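Whole liver RNA (3 libraries per group) was sequenced by the authors as 150 bp paired-end reads on BGIseq500. Per the submitters' processing notes, reads were trimmed with Trim Galore 0.6.7, mapped to mm10 with HISAT2 2.2.1 and counted per gene with featureCounts 2.0.1. The authors deposited raw counts, neither normalized nor filtered. The annotation, the use of strand and the handling of multimapping reads are not given in the sources used here. Libraries differ little in depth, so the precision of a gene rests on its counts and on the spread between libraries, which the intervals cover.

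The analysis used edgeR 4.0.16 in R 4.3.3. filterByExpr (minimum count 10, minimum total 15) kept 14379 of 24008 genes, TMM factors ran from 0.927 to 1.17, and all 9 libraries shared one quasi-likelihood fit, with group as the sole term (common biological coefficient of variation 0.150). The study's own thresholds were used with edgeR in place of its DESeq2. Fold changes are log2, and a prior count of 2 was added for log2 CPM. The code was run on counts simulated from the fit's own means and spread, which does not test how well the model suits these data. Coordinates and lengths are from GENCODE vM21 (GRCm38, the same build as mm10).

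The text names all members, the other annexins in the table, at most 4 called genes per partner list and comparison (or the one with the lowest p where none was called), the 5 genes most like the members and, of the marker lists that moved with them, at most 3 genes. Exceptions are marked. The members and lists were chosen with earlier results of these data known. Of the list genes, Fpr3 had no row, and Cavin1 was matched as Ptrf. Alternatives were DESeq2 1.42.0, its size factors in edgeR, no filter, only the 6 libraries compared, the replicate number as a block, other thresholds, other lengths, each library left out and, after seeing the data, marker sums without their top gene. 1 listed gene was counted with its list and is not reported here by name.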

Additional observations from a re-analysis of the deposited data

How the results depend on the processing

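The members called in F4MKO+FSTL1 relative to F4MKO livers numbered 4 with all alternative scalings, filters and sample sets, except 5 with no fold threshold and 3 with a test against 1.5-fold. With 1 library left out they numbered 4 to 5. Over all genes the calls in this comparison ran from 1295 to 2216 with 1 library left out, beside 2070. In F4MKO relative to Flox livers, members called were 1 (Anxa2) with DESeq2, 1 with no filter and 0 to 1 with 1 library left out. The 1 came without F4MKO+FSTL1 replicate 1 (Anxa2, adjusted p = 0.0378). Calls over all genes in this comparison were 39, against 338 with DESeq2, 478 with no filter, 11 with the 6 libraries alone, 0 with a test against 1.5-fold and 0 to 100 with 1 library left out (0 without F4MKO replicate 1 or any Flox library, 100 without F4MKO replicate 3). In F4MKO+FSTL1 compared with Flox livers no alternative called a member, and 1 gene was called in all, against 284 with DESeq2, 379 with no filter and 0 to 101 with 1 library left out (101 without F4MKO+FSTL1 replicate 3, 15 without Flox replicate 3, 9 without Flox replicate 1 and 5 without F4MKO replicate 2). In each case the cause was not tested.

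With the replicate number as a block, 1 member was called in F4MKO relative to Flox livers (Anxa2, adjusted p = 0.0265), 4 and 0 in the others, and 134, 2170 and 15 genes in all. Deviations of same-numbered libraries correlated at 0.04 to 0.17, 0.09 to 0.30 and -0.10 to 0.21 in the 3 comparisons. Of 6 libraries, 5, 6 and 2 correlated best with their own number, so some likeness by number was seen in the first 2 comparisons. The labels do not say what the numbers stand for, and the main fit has no block. Whether same-numbered libraries share a batch or another factor was not tested.

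Of 360 alternative log2 fold changes of single members, 338 kept direction and side of the threshold and 16 changed sign, all in Anxa6, Anxa7 or Anxa11 with values near 0. For F4MKO+FSTL1 relative to F4MKO livers, Anxa7 was at 0.00742 with DESeq2 and -0.0626 to 0.0690 with 1 library left out, and Anxa11 at -0.00391 to 0.14. For F4MKO relative to Flox livers, Anxa6 was at 0.00905 with 6 libraries, 0.00297 with the replicate block and -0.0772 to 0.0609 with 1 library left out, Anxa7 at -0.0456 to 0.0803 and Anxa11 at -0.0897 to 0.20. For F4MKO+FSTL1 compared with Flox livers, Anxa7 was at -0.000555 to 0.0402 and Anxa11 at -0.0280 to 0.26.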
